A study of Bos taurus with 6 samples.

Results

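DNMT3A, CXXC5_BOVIN and H2AV_BOVIN are 3 cattle genes whose products write DNA methylation, read CpG-rich DNA or build chromatin. They were taken by name from the authors' deposited table of differentially methylated regions, in which they are 3 of 263 distinct gene names. Each locus was the gene range of that table with 20000 bp added on either side, and every cytosine with at least 10 read calls in a library was used for windows, bins and flanks. In the listed regions, all covered cytosines were summed for each library with at least 10 calls in the region, and values at 10 calls per cytosine are given beside them. The members were chosen by the difference in methylation between the groups in these same libraries, so the values of the listed regions are given as a description, with no test.

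Adult males of 5 cattle breeds had the methylation of their blood DNA measured by reduced representation bisulfite sequencing (RRBS), which cuts the genome with MspI at CCGG, converts unmethylated cytosines and reads the rest as methylated. Creole 1 was a Sanmartinero animal, and Creole 2 and Creole 3 were Costeno con Cuernos. Spanish 1 came from the Retinta breed, Spanish 2 from the Asturiana de los Valles and Spanish 3 from the Lidia. The comparison asked whether blood methylation differs between cattle adapted to the American tropics and the Iberian breeds they come from, with 1 library for each animal.

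Cytosine methylation in mammals sits mostly at CpG dinucleotides, and a CpG carries a cytosine on either strand that is normally methylated or unmethylated together with its partner. DNMT3A is a DNA methyltransferase that sets new methylation marks, and in mouse and human blood it is required for normal differentiation of haematopoietic stem cells. CXXC5 belongs to a family of proteins with a CXXC zinc finger, a fold that in several members binds CpG-rich DNA lacking methylation. H2AV_BOVIN is the entry name of a histone H2A variant of the H2A.Z kind, which is placed in nucleosomes beside active transcription starts and in plants and mammals is depleted from methylated DNA. CpG islands, stretches dense in CpGs that often cover promoters, are mostly free of methylation in blood as in other tissues.

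Library totals ranged from 40986296 to 84537374 read calls, with a median of 8 to 19 calls per cytosine. Creole 1 stood apart in breadth, covering 3491869 cytosines against 710684 to 1692031 in the other 5 libraries, and in having intermediate levels more often. In Creole 1, 73.6% of cytosines with at least 10 calls on all chromosomes were at 5% methylation or less or at 95% or more, against 93.0% to 94.5% in the other 5. DNA was extracted with 1 kit for the Creole animals and another for the Spanish animals, and the file names carry different lane marks. Kit, lane and group therefore cannot be told apart in any comparison below. Whole blood is a mixture of cell types, and a change in cell proportions and a change within cells cannot be told apart either.

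By name alone, the 3 entries match these genes in the RefSeq gene list of assembly ARS-UCD2.0: DNMT3A (between DTNB and POMC), CXXC5 (between UBE2D2 and PSD2) and H2AZ2, with the synonym H2AFV (between PURB and PPIA). Coordinates below are those of the deposited files, on build UMD3.1. The orientation of the genes is not given in the deposited table, and its distances equal the region end minus the lower coordinate of the gene range in all 275 regions with a gene range. Flanks are therefore called lower-coordinate and higher-coordinate. The cytosines of a CpG are called first (lower coordinate) and second (higher coordinate).

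Coverage was patchy at these genes. Over the 3 loci, 727 distinct cytosines reached 10 calls in at least 1 library, of which 282 were at DNMT3A, 232 at CXXC5_BOVIN and 213 at H2AV_BOVIN. Of these, 427 did so in 1 library only, 174 in both groups and 1 in all 6 libraries. In 1000 bp windows this gave 31 windows at DNMT3A, 19 at CXXC5_BOVIN and 6 at H2AV_BOVIN. A window with both groups was thus often read at different cytosines in each library.

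The 3 loci differed in their overall level. Of the 86 window values of DNMT3A, 16 were below 20% methylation and 31 above 80%, with a median of 71.2%. Of the 46 values of CXXC5_BOVIN, 10 were below 20% and 21 above 80%, with a median of 69.0%. H2AV_BOVIN had 14 of 21 values below 20% and a median of 0.918%. Over all chromosomes and libraries, 20.3% of window values were below 20%, 37.4% were above 80% and the median was 71.5%. DNMT3A and CXXC5_BOVIN thus had medians within a few points of the genome's, while H2AV_BOVIN was mostly unmethylated where it was covered.

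**Figure D1:**
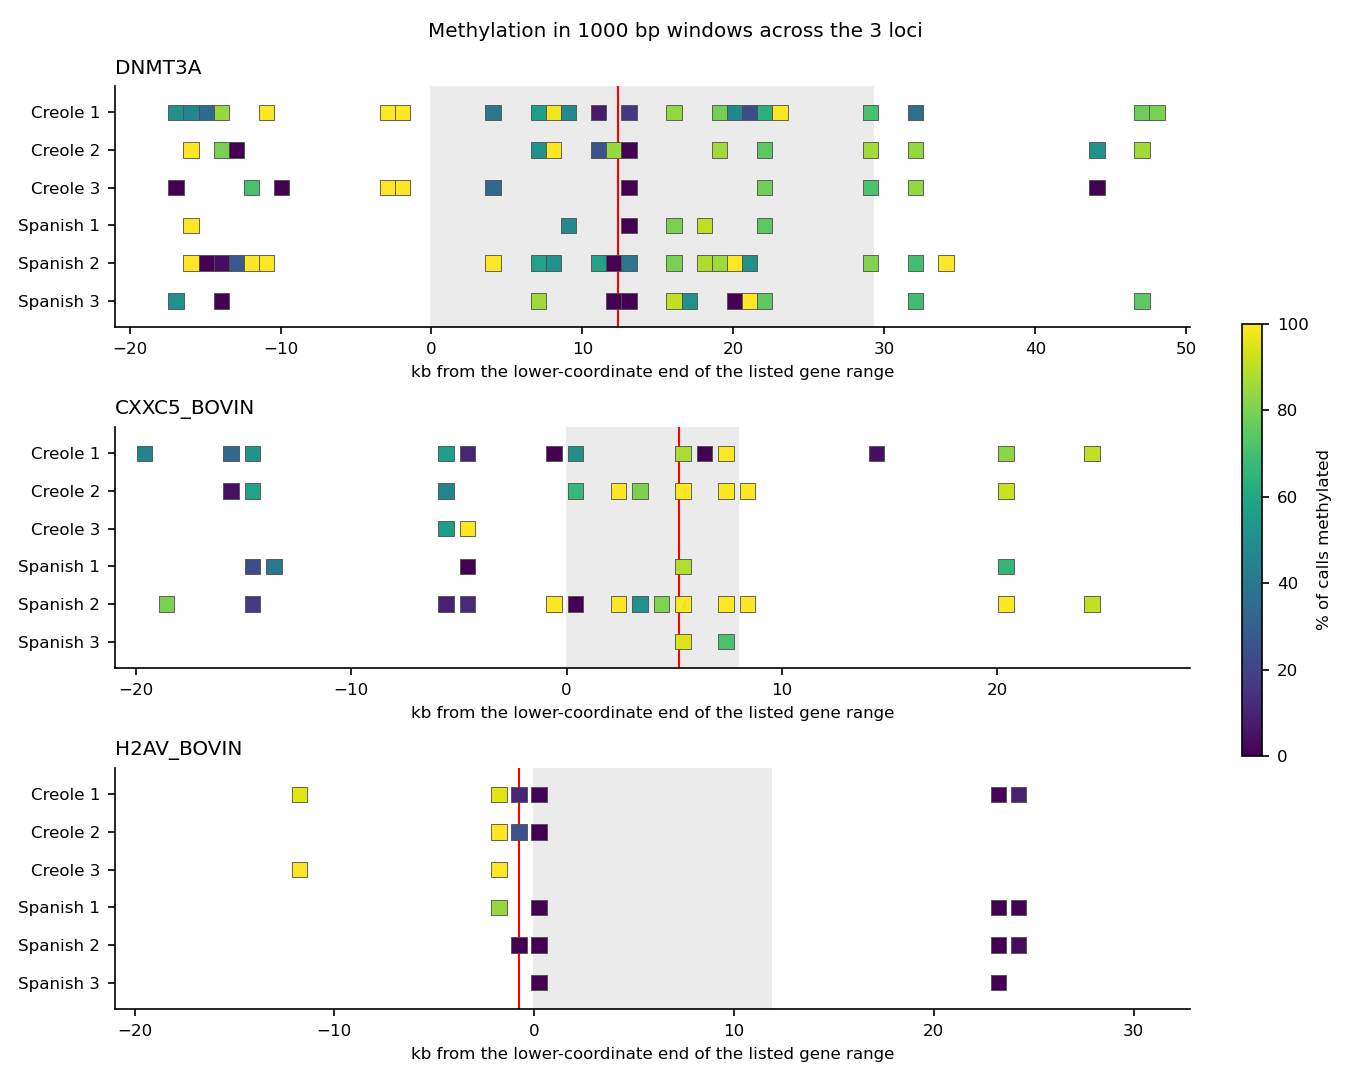
Methylation in 1000 bp windows of the 3 loci, 1 line per library, against the distance in kb from the lower-coordinate end of the gene range (grey). The colour gives the percent of calls methylated and the red line marks the listed region. The covered window of the H2AV_BOVIN gene range is dark in all 5 libraries measured there, while DNMT3A and CXXC5_BOVIN mix high and low windows.

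The listed region of DNMT3A, the de novo methyltransferase gene, is 96 bp long and lies in an intron (chr11:74042792-74042887; gene range chr11:74030425-74059688), with 5 CpGs and means of 94% in Creole and 15% in Spanish animals in the authors' deposited table. Recomputed from the calls, Creole 2 read 100% from 374 calls (95% Wilson interval 99.0 to 100%) and Creole 3 read 100% from 10 calls (72.3 to 100%). Spanish 2 read 0% from 72 calls (0 to 5.07%) and Spanish 3 read 0% from 419 calls (0 to 0.909%). All covered cytosines were fully methylated in the Creole libraries and unmethylated in the Spanish libraries, with no overlap. Creole 1 and Spanish 1 did not cover the region. Intervals of this kind cover counting error only, because reads amplified by PCR and carrying no molecular identifiers can be copies of 1 molecule.

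The depth behind these 4 libraries was unequal. Creole 2 had 74 or 75 calls at each of 5 first cytosines, and Creole 3 had 2 calls at each of the same 5, so that 2 reads could account for its 10 calls. Spanish 3 had 83 or 84 calls at the same 5 first cytosines, while Spanish 2 had 18 at each of 4 second cytosines. With Creole 3 set aside for having under 5 calls at a covered cytosine, Creole 2 alone stood against the Spanish pair, again at 100% against 0%. The contrast ended within 10 bp of the region, because the next first cytosine, at position 74042897, read 0 of 71 calls methylated in Creole 2 and 0 of 2 in Creole 3, and 1 of 82 in Spanish 3. Its partner at 74042898 read 0 of 18 in Spanish 2. The 1000 bp window that follows (chr11:74043001-74044000) was measured in all 6 libraries. It read 16.1% in Creole 1, 0% in Creole 2 and 0% in Creole 3, against 0% in Spanish 1, 39.1% in Spanish 2 and 0% in Spanish 3. Low values prevailed in both groups there, and the intermediate ones came from 1 library of each. Spanish 2 had 14 cytosines in the window, against 1 to 4 in each of the others. At the lone cytosine shared by all 6 libraries, position 74043994, Spanish 2 read 0 of 16 and Creole 1 read 5 of 31 calls methylated, and the others read 0%.

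The listed region of CXXC5_BOVIN, the CXXC zinc finger gene, is 76 bp long and lies on an exon (chr7:52510296-52510371; gene range chr7:52505097-52513059). Means of 44% in Creole and 84% in Spanish animals, over 9 CpGs, are given in the authors' deposited table. The coverage files hold 9 cytosine positions in the region, 5 first and 4 second cytosines. Over all of them Creole 1 read 53.2% (124 calls, Wilson interval 44.5 to 61.8%), Creole 2 read 100% (256 calls, 98.5 to 100%) and Creole 3 read 13.8% (29 calls, 5.50 to 30.6%). Spanish 1 read 100% (155 calls, 97.6 to 100%), Spanish 2 read 100% (130 calls, 97.1 to 100%) and Spanish 3 read 84.4% (192 calls, 78.6 to 88.8%). Creole libraries averaged 55.7% ± 43.2 and Spanish libraries 94.8% ± 9.02 (SD, n = 3 each). The groups overlapped, with Creole 2 at the level of Spanish 1 and Spanish 2.

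The libraries had not read the same cytosines. On first cytosines, Creole 1 had 0 of 40 calls methylated and Creole 3 had 0 of 25, against 155 of 155 in Spanish 1 and 130 of 130 in Spanish 2. On second cytosines, Creole 1 had 66 of 84 calls methylated, Creole 2 had 256 of 256 and Creole 3 had 4 of 4, against 162 of 192 in Spanish 3. The difference between the group means was thus -100 points on first cytosines and 4.91 points on second cytosines, where Creole 3 is left out for its 4 calls. Within Creole 1 the first cytosines of the region read 0%, at 8 calls each, while their second cytosines read 78.6%, at 20 to 22 calls each. With cytosines under 10 calls left out, Creole 3 and the 5 first cytosines of Creole 1 dropped out, and the difference was -5.51 points (89.3% in Creole and 94.8% in Spanish libraries). Without Creole 2 the difference was -61.3 points, and without Creole 3 it was -18.2 points.

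Just below the region the first cytosines read differently. At position 52510283, 13 bp below the region, Creole 1 read 8 of 8 calls methylated and Creole 3 read 5 of 5, against 31 of 31 in Spanish 1 and 26 of 26 in Spanish 2. At the first position of the region, 52510296, Creole 1 read 0 of 8 and Creole 3 read 0 of 5, against 31 of 31 in Spanish 1 and 26 of 26 in Spanish 2. Farther down, at position 52510235, Creole 1 read 8 of 8 and Creole 3 read 0 of 5, again against 31 of 31 in Spanish 1 and 26 of 26 in Spanish 2. The first cytosine at the region start was thus unmethylated in Creole 1 and Creole 3, and in Creole 3 a lower cytosine was unmethylated too. Creole 2 did not cover these first cytosines. At the second cytosine of the region start, 52510297, Creole 1 read 3 of 20, Creole 2 read 64 of 64 and Creole 3 read 1 of 1, against 48 of 48 in Spanish 3. Above the region, at position 52510382, Creole 1 read 0 of 8 and Creole 3 read 0 of 5, against 15 of 31 in Spanish 1 and 26 of 26 in Spanish 2. Calls at neighbouring first cytosines of 1 library had equal counts and can come from the same reads. How many DNA molecules stand behind the 8 and the 5 calls cannot be read from the deposited counts.

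The listed region of H2AV_BOVIN, the histone variant gene, is 110 bp long and lies on the promoter (chr4:77388478-77388587; gene range chr4:77389255-77401081) in the core of a CpG island (chr4:77388305-77389916). In the authors' deposited table it has 11 CpGs and means of 89% in Creole and 12% in Spanish animals. Recomputed over all calls, Creole 1 read 33% (133 of 403, Wilson interval 28.6 to 37.7%) and Creole 2 read 30% (432 of 1440, 27.7 to 32.4%). Spanish 1 read 0% (0 of 77, 0 to 4.75%) and Spanish 2 read 0.395% (1 of 253, 0.0698 to 2.21%). Creole 3 and Spanish 3 did not cover the region. Both Creole libraries lay above both Spanish libraries, with means of 31.5% ± 2.12 in Creole and 0.198% ± 0.279 in Spanish (SD, n = 2 each). The Creole mean lay well below the listed 89% of the authors' deposited table. It includes first cytosines, at 20.9% in the Creole libraries, which neither Spanish library covered. On second cytosines Creole 1, the lone Creole library there, read 100%.

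The similar Creole totals came from different patterns. Creole 2 had 144 calls at each of 10 first cytosines, of which 3 read 100% and 7 read 0%, and it covered no second cytosine. Creole 1 had 36 of 306 calls methylated at the same 10 first cytosines (11.8%, Wilson interval 8.62 to 15.9%) and 97 of 97 at 11 second cytosines (96.2 to 100%, 8 or 9 calls each). Among the first cytosines, Creole 1 was highest at position 77388511, with 12 of 31 calls methylated, and Creole 2 read 144 of 144 there and at 77388527 and 77388533. Both Spanish libraries covered second cytosines only, at 7 calls each in Spanish 1 and 23 each in Spanish 2. Creole 2 and the Spanish libraries therefore shared no cytosine of the region, and on second cytosines the difference was 99.8 points from Creole 1 alone against Spanish 1 and Spanish 2. With cytosines under 10 calls left out it was 20.5 points, from first cytosines in Creole 1 and Creole 2 and second cytosines in Spanish 2.

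The rest of the H2AV_BOVIN island was unmethylated in every library that covered it. Creole 1 read 0.787% over 53 cytosines and Creole 2 read 0.112% over 9 cytosines. Spanish 1 read 0% over 33 cytosines, Spanish 2 read 0% over 12 and Spanish 3 read 0.0412% over 25. The highest value of a cytosine with at least 10 calls there was 8.33%, in Creole 1. At position 77388477, 1 bp below the region, Creole 1 read 0 of 31 and Creole 2 read 1 of 144 calls methylated. That position is the first cytosine of a CpG whose second cytosine, 77388478, opens the region and read 9 of 9 in Creole 1. The next first cytosine, 77388482 inside the region, also read low, at 3 of 30 in Creole 1 and 0 of 144 in Creole 2. Below the minimum of 10 calls, Creole 1 read 6 of 6 calls methylated at positions 77388380 and 77388428 of the island. At the depth of 10 calls, methylation above 10% within the island was thus seen in the listed 110 bp and in the Creole libraries. The region had been chosen for a difference between the groups in these same libraries. At that depth the Creole libraries were read there on first cytosines only, and Spanish 2, the lone Spanish library, on second cytosines only. No cytosine of the region was then compared between the groups.

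**Figure D2:**
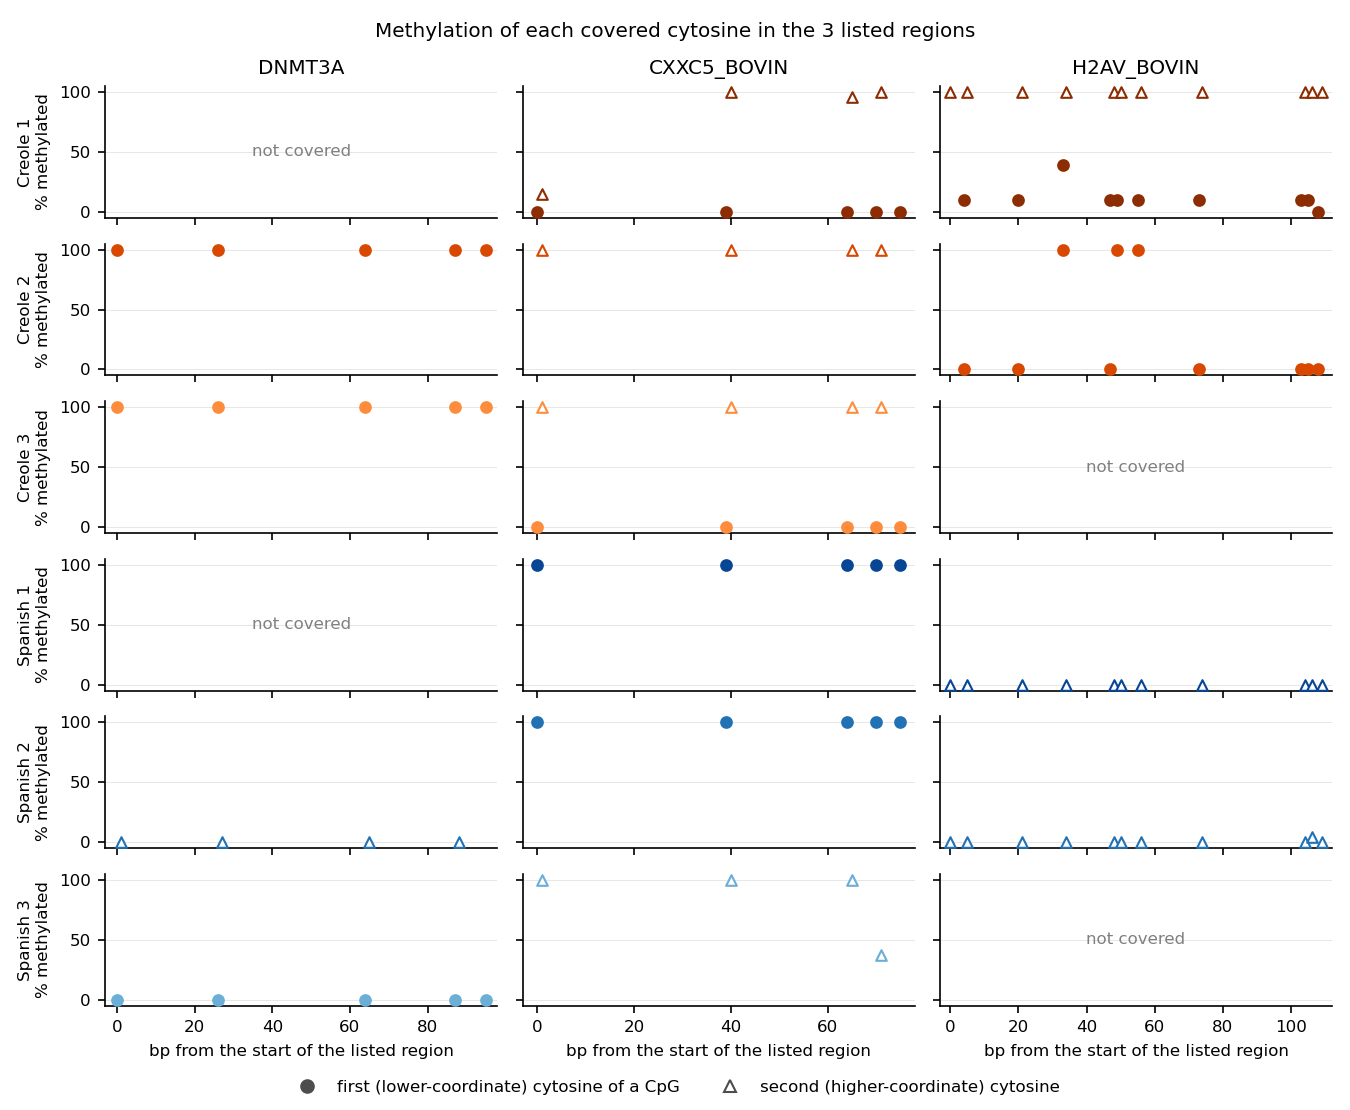
Methylation of each covered cytosine (percent of calls) in the 3 listed regions against the distance in bp from the region start, 1 panel per library. Filled circles are first cytosines and open triangles second cytosines of a CpG. In CXXC5_BOVIN the circles read 0% in Creole 1 and Creole 3 and 100% in Spanish 1 and Spanish 2, while most triangles read 100% in both groups.

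Among the listed regions, the difference between the groups often was not the same on first and on second cytosines. Each side was taken from the libraries with at least 10 calls on it, so the libraries could change with the side. At CXXC5_BOVIN the first cytosines came from Creole 1 and 3 and Spanish 1 and 2, and the second from Creole 1 and 2 and Spanish 3. The side and the libraries read cannot be told apart in these counts. Over all 334 regions of the authors' deposited table, 57 could be measured in both groups on first and on second cytosines. In 43 of these 57 (75.4%) the group difference on first cytosines lay at least 50 points from that on second cytosines, and in 13 the signs were opposite, as at CXXC5_BOVIN. Another 201 regions, DNMT3A and H2AV_BOVIN among them, had both groups on 1 side only, and 76 on neither. The contribution of library preparation, which fills in the ends left by MspI, and of low molecule numbers was not tested.

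The cytosines of a CpG could be compared within a library where both had at least 10 calls. Over the 3 loci, 18 of 85 such CpGs (21.2%) differed by at least 50 points, beside 23.9% on all chromosomes. Creole 1 gave 64 of the 85, of which 10 differed, and each other library gave 1 to 9. The share was 13 of 28 at DNMT3A, 5 of 23 at CXXC5_BOVIN and 0 of 34 at H2AV_BOVIN. The minimum left out the CpGs of the H2AV_BOVIN listed region, where Creole 1 had 8 or 9 calls at each second cytosine. Creole 1 read 11.8% on first and 100% on second cytosines of that region. Those of the CXXC5_BOVIN listed region were left out too, with 8 calls at each first cytosine in Creole 1. Most single cytosines were near 0% or 100%. In the 3 loci together, 89.7% of the cytosine values were at 5% or less or at 95% or more, with 74.8% in Creole 1 and 94.4% to 99.3% in the other 5 libraries.

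Pairs of libraries were also set against each other at cytosines that both had measured outside the listed regions. Between the groups, 66 of 310 such comparisons (21.3%) differed by at least 50 points, and within a group 30 of 246 (12.2%). On all chromosomes these shares were 13.6% and 13.4%. At CXXC5_BOVIN the share was 37 of 100 between groups and 13 of 63 within a group, at DNMT3A 29 of 120 and 17 of 121, and at H2AV_BOVIN 0 of 90 and 0 of 62. The pairs were uneven, at 37.1% for Creole 1 with Spanish 2, 32.0% for Creole 2 with Spanish 2, 25% for Creole 2 with Spanish 1, 17.1% for Creole 1 with Spanish 1 and 0% to 12.5% for the other 5 between-group pairs. Of the latter, those with Creole 3 rest on 8 or 9 shared cytosines, Creole 2 with Spanish 3 on 18 and Creole 1 with Spanish 3 on 53. The within-group share at CXXC5_BOVIN came from 2 pairs. Neighbouring cytosines share reads and each library enters several pairs, so the counts are a description and no test was made.

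**Figure D3:**
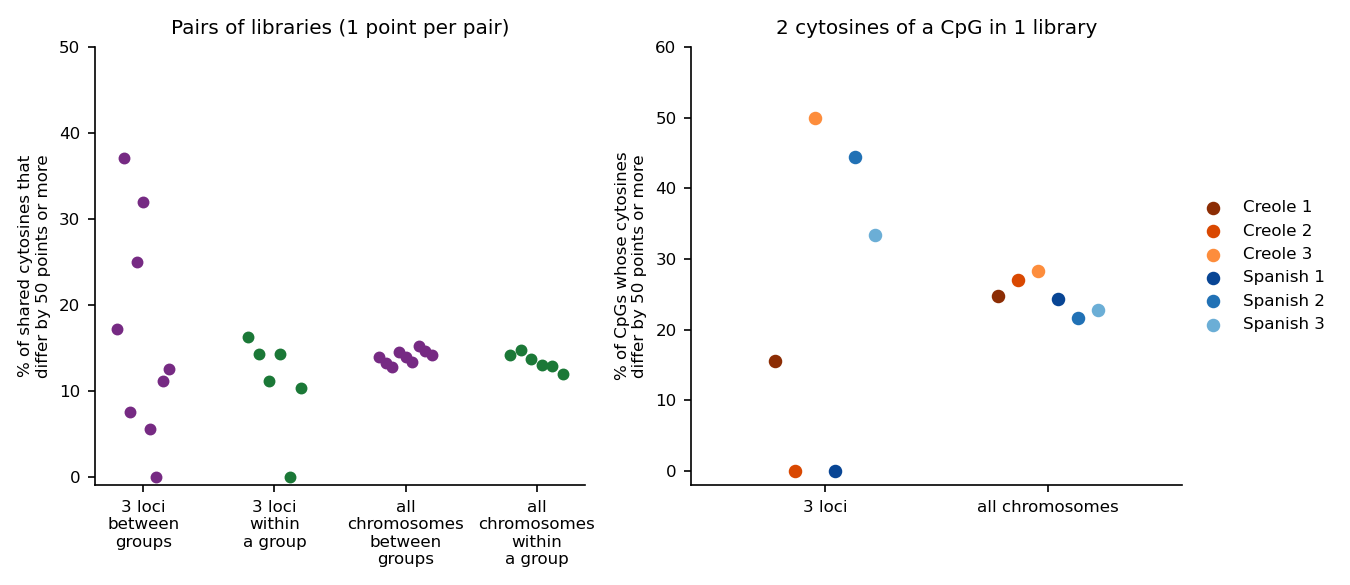
Left, percent of shared cytosines that differ by 50 points or more, 1 point per pair of libraries, between groups (purple) and within a group (green), at the 3 loci outside the listed regions and on all chromosomes. Right, percent of CpGs whose first and second cytosines differ by 50 points or more in 1 library. At the 3 loci the Creole 1 point rests on 64 CpGs and each other point on 1 to 9. Pairs at the loci, each from 8 to 86 shared cytosines, spread from 0% to 37.1%, and pairs on all chromosomes stay between 11.9% and 15.1%.

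Over the flanks and gene ranges outside the listed regions, each cytosine was given equal weight. In the DNMT3A gene range Creole 1 read 70.6%, Creole 2 read 63.3% and Creole 3 read 68.4%, against 67.2% in Spanish 1, 60.7% in Spanish 2 and 64.1% in Spanish 3. The groups overlapped within 10 points. In the DNMT3A lower-coordinate flank Creole 1 read 80.6%, Creole 2 read 54.2% and Creole 3 read 56.3%, against 100% in Spanish 1 from 1 cytosine, 48.3% in Spanish 2 and 6.67% in Spanish 3. These flank values overlapped and spread widely within the Spanish group. In the higher-coordinate flank the Creole values were 72.2%, 76.5% and 50% in Creole 1, 2 and 3, against 76.5% in Spanish 2 and 70.6% in Spanish 3.

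In the CXXC5_BOVIN lower-coordinate flank Creole 1 read 46.7% over 66 cytosines, Creole 2 read 42.4% over 24 and Creole 3 read 65.8% over 6. Spanish 1 read 23.8% over 22 cytosines and Spanish 2 read 23.6% over 43, while Spanish 3 had none. The Creole values all lay above the Spanish values, but the libraries were not all read at the same cytosines. Creole 3 shared no measured cytosine with any other library at this locus outside the listed region. Over all chromosomes the groups did not overlap in 21.6% of 47557 windows of 1000 bp with at least 2 libraries of each group. No such share is given for whole flanks. In the CXXC5_BOVIN gene range Creole 1 read 74.8% and Creole 2 read 90.6%, against 82.95% in Spanish 1, 84.9% in Spanish 2 and 86.7% in Spanish 3. The groups overlapped in the gene range. In the higher-coordinate flank Creole 1 read 72.7% and Creole 2 read 92.3%, against 66.3% in Spanish 1 and 94.7% in Spanish 2, again with overlap.

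The H2AV_BOVIN gene range was measured in 1 window only, at cytosines between positions 77389265 and 77389879. These lie inside the CpG island, which ends at 77389916, and are part of the island values given above. They read 0.457% in Creole 1 and 0% in Creole 2, against 0% in Spanish 1, 0% in Spanish 2 and 0.0377% in Spanish 3. The gene range beyond the island was not measured. The higher-coordinate flank of H2AV_BOVIN read 1.09% in Creole 1, against 0.0516% in Spanish 1, 1.86% in Spanish 2 and 0.0727% in Spanish 3. All of these were near 0%. Just below the island, a pair of cytosines shared by 4 libraries (window chr4:77387001-77388000) read 95.5% in Creole 1, 100% in Creole 2 and 100% in Creole 3, against 84.6% in Spanish 1. High methylation thus lay within 1 kb of the island in all 4 libraries, and the island itself was not measured in Creole 3.

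**Figure D4:**
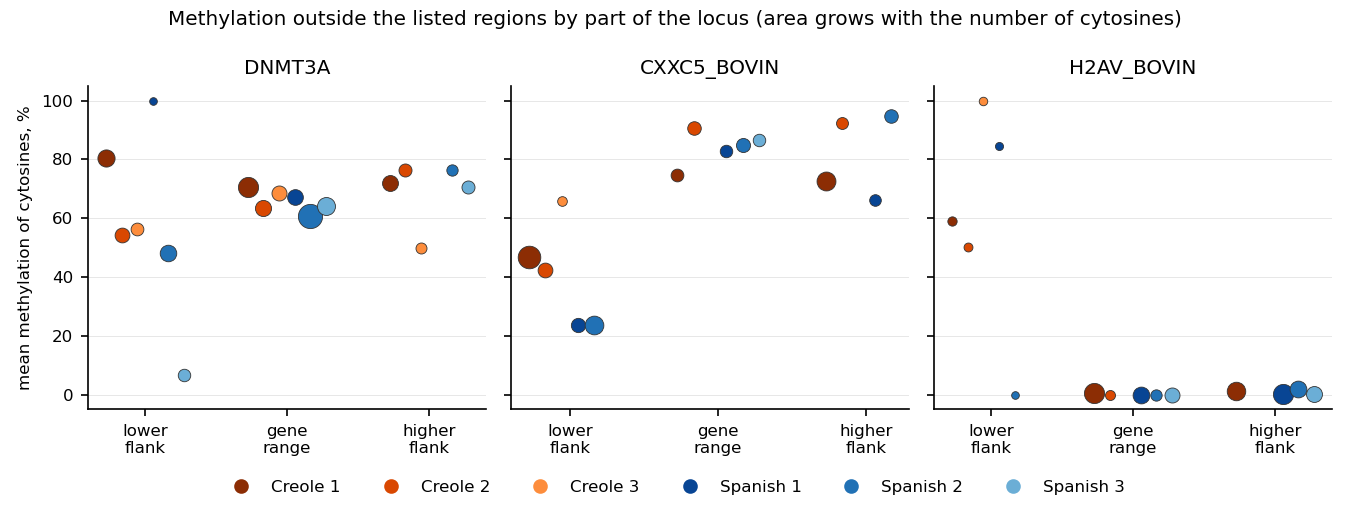
Mean methylation of cytosines outside the listed regions in the lower-coordinate flank, gene range and higher-coordinate flank of each gene, 1 point per library with an area that grows with the number of cytosines. Orange shades are Creole and blue shades Spanish libraries. In the CXXC5_BOVIN lower flank the Creole points are at 42.4% to 65.8% and the Spanish points at 23.6% and 23.8%, not all from the same cytosines. In the H2AV_BOVIN gene range, covered in 1 window only, every point is below 1%.

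Single windows outside the listed regions were then compared between the groups. Of the 56 windows, 12 were measured in at least 2 libraries of each group and 11 of these lay outside the listed regions. In 3 of the 11 the groups did not overlap, 2 at DNMT3A and 1 at CXXC5_BOVIN, 2 of them higher and 1 lower in Creole. Over all chromosomes the groups did not overlap in 21.6% of 47557 such windows (9.81% higher and 11.8% lower in Creole), so the share at the 3 loci, from 11 windows, was near the background.

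The largest of these differences was in the DNMT3A lower-coordinate flank (chr11:74016001-74017000). Creole 1 read 84.5% (296 calls at 22 cytosines) and Creole 2 read 79.99% (1754 calls at 15), against 3.15% in Spanish 2 (413 calls at 8) and 0% in Spanish 3 (203 calls at 13). The Creole libraries were read mostly or wholly on second cytosines and Spanish 3 on first cytosines only, and no cytosine was shared by all 4. The log2 ratio of methylated to unmethylated calls was 7.90 higher in Creole (SE 1.03, limma adjusted p = 0.856 by Benjamini-Hochberg over 47557 windows). The adjusted p ranged from 0.42 to 0.991 with each library left out in turn, so the window did not pass the threshold of 0.05.

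The window of CXXC5_BOVIN without overlap lay in its lower-coordinate flank (chr7:52490001-52491000). Creole 1 read 51.3% and Creole 2 read 58.0%, against 23.2% in Spanish 1 and 17.2% in Spanish 2 (log2 ratio 2.22 higher in Creole, SE 0.76, limma adjusted p = 0.944). Here 10 first cytosines between positions 52490010 and 52490141 were shared by all 4 libraries. Over these 10, Creole 1 had 547 of 1051 calls methylated (52.0%) and Creole 2 had 355 of 588 (60.4%), against 49 of 219 in Spanish 1 (22.4%) and 12 of 110 in Spanish 2 (10.9%). The groups thus stayed apart on identical cytosines, in a window that was named for its lack of overlap and from part of the same calls. Each of the 10 had 100 to 126 calls in Creole 1 and 56 to 60 in Creole 2, against 21 or 22 in Spanish 1 and 11 in Spanish 2. Calls at neighbouring cytosines can come from the same reads. In Creole 2, 6 of the 10 were at 95% or more and the other 4 at 5% or less, while in Creole 1 all 10 lay between those limits.

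The third such window was inside the DNMT3A gene range (chr11:74037001-74038000), at 56% in Creole 1 and 50% in Creole 2, against 57.8% in Spanish 2 and 85.7% in Spanish 3 (limma adjusted p = 0.944). Its lone shared cytosine, at position 74037975, read 5 of 27 calls methylated in Creole 1 and 0 of 40 in Creole 2, against 12 of 12 in Spanish 2 and 12 of 12 in Spanish 3. In the limma fit, 0 of the 11 windows passed an adjusted p of 0.05 and 2 had an unadjusted p below 0.05, those that start at 74016001 and 52490001. Over all 47557 windows 0 passed (0% called) and 2291 had an unadjusted p below 0.05. The edgeR quasi-likelihood fit was limited to 4702 windows with cytosines shared by all 6 libraries and held no window of the 3 loci. It called 0 windows (252 with an unadjusted p below 0.05), a likelihood ratio test called 58 and limma called 1.

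Animals of 1 group also differed from each other. In 6 of the 35 windows with at least 2 libraries of a group, 5 of them at DNMT3A and 1 at CXXC5_BOVIN, libraries of the same group lay at least 50 points apart. In the DNMT3A higher-coordinate flank (chr11:74074001-74075000), 4 shared cytosines read 168 of 336 calls methylated in Creole 2 and 0 of 352 in Creole 3, both Costeno con Cuernos animals. In the CXXC5_BOVIN lower-coordinate flank (chr7:52500001-52501000) Creole 1 read 10% and Creole 3 read 100%, against 0% in Spanish 1 and 12.02% in Spanish 2. Creole 1 and Creole 3 shared no cytosine in that window. Within the Spanish group, Spanish 2 read 100% at a first cytosine of DNMT3A (position 74050903, 47 calls) and Spanish 3 read 0% at its second cytosine (position 74050904, 14 calls). A window of DNMT3A beside it (chr11:74051001-74052000) read 23.1% in Creole 1, against 50% in Spanish 2 and 100% in Spanish 3, with Spanish 2 on first and Spanish 3 on second cytosines. H2AV_BOVIN had no such window among its 6.

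The DNMT3A lower-coordinate flank held a further pair of windows with a wide spread within the Creole group. At chr11:74013001-74014000, a pair of shared cytosines read 13 of 26 calls methylated in Creole 1 and 0 of 124 in Creole 3, against 20 of 40 in Spanish 3. At chr11:74014001-74015000, the lone cytosine measured, at position 74014722, read 11 of 24 in Creole 1 and 13 of 13 in Creole 2, against 11 of 11 in Spanish 1 and 16 of 16 in Spanish 2. In both windows 1 Creole library stood at the Spanish level and the other away from it.

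In the best covered windows of the higher-coordinate flanks, the groups overlapped at DNMT3A and CXXC5_BOVIN. At DNMT3A (chr11:74062001-74063000) Creole 1 read 36.4%, Creole 2 read 83.8% and Creole 3 read 83.7%, against 69.8% in Spanish 2 and 69.5% in Spanish 3 (limma adjusted p = 1). At CXXC5_BOVIN (chr7:52525001-52526000) Creole 1 read 82.7% and Creole 2 read 91.8%, against 66.3% in Spanish 1 and 100% in Spanish 2 (limma adjusted p = 0.995). The Creole values enclosed the Spanish values at DNMT3A, and the Spanish values enclosed the Creole values at CXXC5_BOVIN. At DNMT3A, Creole 1 was read at positions 74062434 to 74062554, and Creole 2 and Creole 3 at 74062557 to 74062664, with no cytosine in common. At CXXC5_BOVIN the 4 libraries shared 1 cytosine, at position 52525726. It read 8 of 43 calls methylated in Creole 1 and 0 of 109 in Creole 2, against 0 of 22 in Spanish 1 and 13 of 13 in Spanish 2. At H2AV_BOVIN (chr4:77412001-77413000) Creole 1 read 0.918%, against 0.0993% in Spanish 1, 0% in Spanish 2 and 0.0709% in Spanish 3. Creole 1, the lone Creole library there, lay above the 3 Spanish libraries by less than 1 point.

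A level for each locus over bins shared by all 6 libraries could not be tested. The 3 loci held 143 bins of 100 bp, of which 1 was measured in all 6 libraries, where 3 per locus had been required. The 318 bin values split into 119 below 20%, 107 above 80% and 92 between. Without Spanish 2, DNMT3A reached 3 shared bins, with a mean of 37.4% in Creole libraries, against 44.4% in Spanish libraries (difference -7.00 points, two-sided exact permutation p = 0.7). The smallest p that 3 against 2 libraries allow is 0.1, so this test could not pass 0.05.

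Other genes of these pathways were looked up in the same table. Lists of DNA methyltransferases and maintenance factors (15 names), CXXC zinc finger proteins (13) and histone variants and chaperones (28) matched 1 gene each, the members themselves. Lists of demethylation enzymes (17), methyl-CpG binding proteins (14), histone modifiers (45) and chromatin remodellers (20) matched 0. Among lists of blood cell markers, CD5_BOVIN, a T cell surface receptor, was the 1 match of 14 T cell names. Its listed region (chr29:38003019-38003086) read 2.04% in Creole 1 and 0% in Creole 3, against 42.3% in Spanish 2. No match was found for erythrocyte and platelet markers (8 names), B cell markers (7), neutrophil and monocyte markers (10) or NK and cytotoxic cell markers (5). Blood cell proportions were not measured, and their part in any difference was not tested.

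Among the other listed regions, those with the closest levels per library were found by the mean absolute difference over libraries measured in both. For DNMT3A this was the region of E1BJ47_BOVIN, at 0 points over 4 libraries, followed by IQSEC3 at 7.23 and LOC100336870 at 25 points, out of 11 candidates. For CXXC5_BOVIN, SERPINB1 came closest at 34.8 points over 6 libraries, ahead of FMN1 at 49.2 and SHOX2 at 57.0, out of 5 candidates. For H2AV_BOVIN, NRXN2 lay at 6.07 points over 4 libraries, E1BLM4_BOVIN at 10.4 and SLC6A17 at 13.2, out of 25 candidates. CXXC5_BOVIN thus had no close match, and for all 3 genes the candidates were few because other regions were seldom measured in the same libraries.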

How the data were processed

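Per the labels' protocols, MspI fragments in a narrow size range were selected, converted with bisulfite and amplified by 20 PCR cycles. The submitters' processing notes name Trim Galore, Bismark, methylKit and build UMD3.1. Settings, duplicate handling and the region caller are not given in the sources used. The deposited coverage files give a count of methylated and unmethylated calls and a percent for each cytosine, not normalized. The authors' table gives, per the file headers, group means as a fraction (printed here as percent) and scores (a difference and an area statistic, not printed).

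Levels were methylated over all calls. Windows were fitted over all chromosomes with edgeR 4.0.16 (quasi-likelihood, a term for each library) and limma 3.58.1 on log2((methylated + 2)/(unmethylated + 2)), in R 4.3.3, with Benjamini-Hochberg adjustment; Python 3.11.15, pandas 2.3.3, numpy 2.4.6, scipy 1.17.1 and matplotlib 3.10.9 made the tables, intervals and plots. The fits were also run on simulated windows with known differences. These were modelled on the windows shared by all 6 libraries, which held none of the 3 loci, so no conclusion about the fits at the loci is drawn from them. CpG partners were inferred from adjacent positions. The windows named were those measured in most libraries, those without overlap between groups, and those with libraries of 1 group 50 points apart; values at shared cytosines were added after seeing the data. The members and lists were chosen with earlier results of these data known. P-values measure the spread between libraries, with 1 animal each and 3 of each group at most. In the limma windows at the loci each library was read at its own cytosines. The spread there also holds differences between the cytosines and sides read.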

Additional observations from a re-analysis of the deposited data

How the results depend on the processing

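At DNMT3A every covered cytosine of the region read 100% in Creole and 0% in Spanish libraries, so no setting could move the difference of 100 points, with a library left out included; at 20 calls per cytosine it rests on 1 library of each group. For CXXC5_BOVIN the main value of -39.1 points was -100 on first cytosines alone and reversed to 4.91 on second cytosines alone, both chosen after seeing the data; it was -5.51 with cytosines of at least 10 or at least 20 calls and -16.3 with merged strands, and with a library left out it ranged from -61.3 to -18.2. For H2AV_BOVIN the main value of 31.3 points was 20.5 with cytosines of at least 10 or at least 20 calls, 43.8 as a mean over cytosines and 99.8 on second cytosines (chosen after seeing the data), and 29.8 to 32.8 with a library left out. The number of loci with 3 shared bins was 0, and 0 to 1 with a library left out (1 without Spanish 2). Called windows on all chromosomes were 0 by edgeR quasi-likelihood, 58 by the likelihood ratio test and 1 by limma, fits that held no window of the loci (1 without Creole 1); limma with at least 2 libraries of each group tested 11 there outside the listed regions and called 0. The causes were not tested. No paired analysis was possible because replicate numbers follow sample order and pair no animals. Low calls in Creole 3 (DNMT3A, CXXC5_BOVIN), Creole 1 and Spanish 1 (H2AV_BOVIN) limit these regions, as does the side of the CpG that was read.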
